A study of Saccharomyces cerevisiae with 6 samples.

Results

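The genes described here encode the enzymes of oxidative phosphorylation in the yeast Saccharomyces cerevisiae. They comprise the 3 NADH dehydrogenases of the mitochondrial inner membrane, the 4 subunits of complex II, 9 subunits of complex III, 7 subunits of complex IV and 14 subunits of the ATP synthase. The 37 genes were chosen by function from a list of systematic open reading frame names, and each was matched to the probe set that the deposited annotation pairs with that name. All 37 were measured, among 5657 genes in all, and each was read by a single probe set of a type not marked as shared with other genes. Gene symbols come from the reference gene table of genome assembly R64.

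Transcripts were measured on Affymetrix arrays in the wild-type strain CEN.PK 113-7D, grown in aerobic shake flasks with BSA in the culture (3 arrays) or with no BSA (3 arrays, the control). The abbreviation BSA usually stands for bovine serum albumin, a protein of cattle blood, but is not spelled out in the labels, and neither the dose nor the medium is given in the sources used here. The strain and its wild-type genotype are shared by both groups, the arrays of a group are labelled as biological replicates, and both groups rest on this strain alone. The protocol gives sampling at 48 h, whereas the design text places it early in growth on glucose, so the labels do not settle the growth phase.

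Budding yeast has no multisubunit complex I. Instead NDI1 oxidises NADH in the mitochondrial matrix, and NDE1 and NDE2 oxidise cytosolic NADH from the outer face of the inner membrane, all without pumping protons. Their electrons, and those that complex II (succinate dehydrogenase) takes from succinate, pass by ubiquinone to complex III, by cytochrome c to complex IV and on to oxygen, and the proton gradient made by complexes III and IV drives the ATP synthase. In this yeast many of these genes are repressed by glucose and activated by the Hap2/3/4/5 complex when cells respire. The comparison asked how these transcripts, taken complex by complex, differed when BSA was present.

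Of all 5657 genes, 28.3% were higher and 47.1% lower with BSA at a Benjamini-Hochberg adjusted p under 0.05 in limma, the threshold meant throughout by higher, lower, rose and fell. Over all genes the log2 fold change had a median of -0.13. That median depends on the scaling between arrays, since 37.6% of the called genes were higher as deposited, against 50.3% when arrays were centred on the median of their deviations from the gene means and 49% after cyclic loess. The differences between 2 arrays had SDs over all genes of 0.0567 to 0.198 within a group and 0.625 to 0.732 between groups. The closest pair was no BSA replicates 2 and 3, at 0.0567, against 0.117 to 0.198 for the other pairs within a group. Whether replicates 2 and 3 came from separate cultures was not tested. Counts for the 37 genes are therefore also given with these replicates averaged as 1 sample. RNA of a whole culture cannot tell a change in every cell from a change in the share of cells that carry a transcript.

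Most of the respiratory genes were higher with BSA. Of the 37 genes, 33 rose and 1 fell, a share of 89.2% higher against 28.3% of all genes. The genes that did not pass were NDE2, the membrane anchor gene SDH3 and the ATP synthase gene ATP1, and the gene that fell was another membrane anchor gene, SDH4. Members were chosen by function with earlier results of these data known, so these shares are descriptions. The median log2 fold change over the 37 genes was 0.54, or 0.67 relative to the median of all genes. The changes were moderate in size. Only NDI1, RIP1 and ATP3, which is 3 of the 37, were at least 2-fold higher, and 7.04% of all genes were. In the same 33 genes that rose, every BSA array lay above every no BSA array, and this was so for 29.6% of all genes. With no BSA replicates 2 and 3 as 1 sample, 33 genes rose and the SDH4 call was lost.

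**Figure D1:**
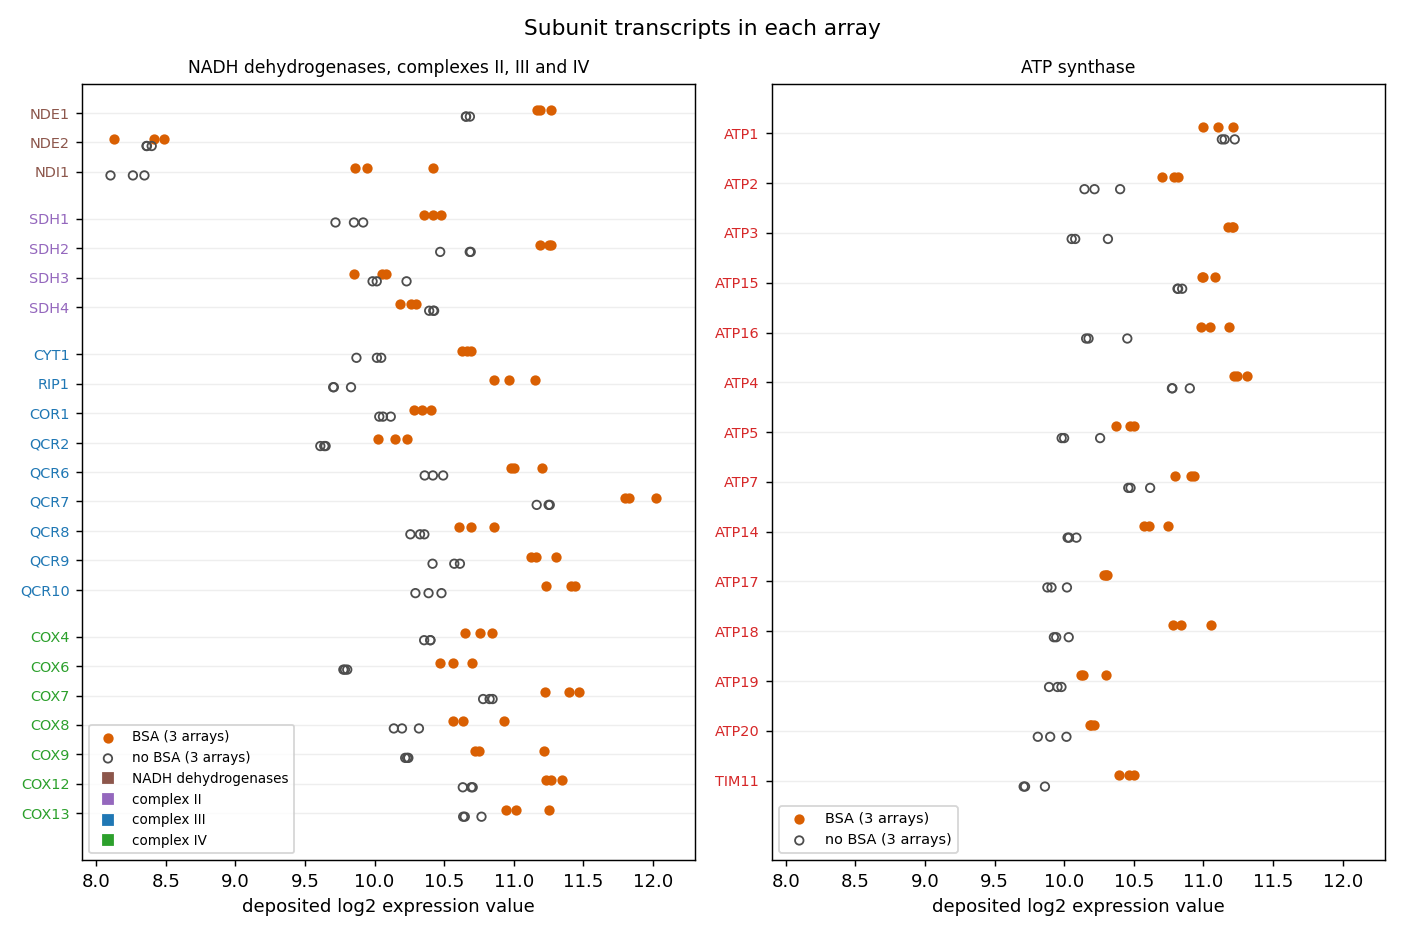
Deposited log2 expression value (horizontal axis) of each of the 37 genes in the 3 BSA arrays (filled) and the 3 no BSA arrays (open), with gene names coloured by complex. Points of both groups overlap for NDE2, SDH3 and ATP1, and the BSA points of SDH4 lie to the left of its no BSA points; in the other 33 genes they lie to the right. Positions of different genes are not comparable, because each probe set has its own response.

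Of the NADH dehydrogenase genes, NDI1 and NDE1 rose with BSA and NDE2 did not pass. NDI1 (YML120C), the matrix-facing enzyme, had log2 values of 10.42, 9.95 and 9.86 in the BSA arrays, against 8.10, 8.26 and 8.35 in the no BSA arrays. The groups stood 1.51 apart at their nearest arrays, and the 3.57-fold rise was the furthest of the 37 genes (log2 fold change 1.84 ± 0.14, SE, limma adjusted p = 2.36e-05). NDE1 (YMR145C), an external enzyme, had values of 11.19, 11.17 and 11.26 with BSA and of 10.68, 10.66 and 10.66 without BSA. Its rise was smaller, at 1.46-fold (0.54 ± 0.05, SE, limma adjusted p = 4.34e-05), again with no overlap between the groups.

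NDE2 (YDL085W), the paralog of NDE1, had values of 8.13, 8.49 and 8.42 in the BSA arrays and of 8.36, 8.36 and 8.40 in the no BSA arrays. The no BSA values lay inside the spread of the BSA values. The change of -0.03 did not pass (limma adjusted p = 0.77), and its 95% interval of -0.25 to 0.18 leaves room for a small change either way. The per-array difference NDE1 minus NDE2 averaged 2.86 ± 0.19 with BSA and 2.29 ± 0.03 without BSA (SD, n = 3 each), so NDE1 moved up relative to NDE2 by 0.57 (exact two-sided permutation p = 0.1, and 0.1 after adjustment over the 2 pairs compared). With 3 arrays against 3 the smallest possible p is 0.1, so the test could not reach 0.05. All BSA arrays had the larger difference.

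In complex II the genes of both soluble subunits rose, and those of both membrane subunits did not. SDH1 (YKL148C), the flavoprotein that binds succinate, had values of 10.47, 10.42 and 10.35 with BSA, against 9.72, 9.85 and 9.92 without BSA, a 1.50-fold rise. SDH2 (YLL041C), the iron-sulfur subunit that carries electrons on to ubiquinone, had values of 11.25, 11.27 and 11.19 with BSA, against 10.47, 10.69 and 10.68 without BSA, a 1.54-fold rise. Both rose by about the same amount (0.59 ± 0.07 and 0.62 ± 0.07, SE), with limma adjusted p = 0.000126 and 0.000133.

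The membrane anchors that hold this pair at the inner membrane were not called higher. SDH3 (YKL141W) had values of 9.85, 10.08 and 10.05 with BSA and of 10.23, 10.02 and 9.99 without BSA. The groups overlapped, and the change of -0.08 (95% interval -0.29 to 0.13) did not pass (limma adjusted p = 0.43). SDH4 (YDR178W) had values of 10.18, 10.30 and 10.26 with BSA, against 10.39, 10.43 and 10.42 without BSA. The groups did not overlap, but stood only 0.09 apart, and the change was -0.17 ± 0.05 (SE, limma adjusted p = 0.0184), a 1.12-fold fall. The SDH4 call was lost without no BSA replicate 2 (adjusted p = 0.0706) or 3 (adjusted p = 0.0647), with those replicates as 1 sample (adjusted p = 0.066), after centring on the median deviation (adjusted p = 0.521) and after cyclic loess (adjusted p = 0.127). Relative to the median of all genes SDH4 changed by -0.03. The intervals of the soluble subunits (from 0.43 upwards) and of the anchors (up to 0.13) did not meet, and the difference between these subunit pairs was not tested, because it was noticed after the values were seen.

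The 3 genes that resemble complex II subunits were also measured. SDH9, a relative of SDH1, rose by 0.54 ± 0.16 (SE) and SHH3, a relative of SDH3, by 0.56 ± 0.08. SHH4, a relative of SDH4, changed by -0.27 ± 0.07 and was called lower. The SDH9 call was lost without BSA replicate 2 or 3 (limma adjusted p = 0.0588 and 0.0508) and by the plain per-gene test (adjusted p = 0.0886), and the SHH4 call was lost under quantile normalization, centring on the median deviation and cyclic loess (adjusted p = 0.0775 to 0.291). SHH3 passed under every alternative that kept the threshold.

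All 9 genes of complex III, the cytochrome bc1 complex, rose with BSA, with a median log2 fold change of 0.66. RIP1 (YEL024W), the Rieske iron-sulfur protein that takes electrons from ubiquinol, had values of 11.15, 10.96 and 10.86 with BSA, against 9.70, 9.71 and 9.83 without BSA. It rose 2.37-fold (1.24 ± 0.08, SE), the furthest in the complex, and its groups stood 1.03 apart. CYT1 (YOR065W), cytochrome c1, which hands the electrons on to cytochrome c, had values of 10.69, 10.66 and 10.63 with BSA, against 9.87, 10.05 and 10.02 without BSA, a 1.60-fold rise (0.68 ± 0.06, SE, limma adjusted p = 3.90e-05). The 95% intervals of the log2 fold change were 1.05 to 1.43 for RIP1 and 0.54 to 0.82 for CYT1 and did not meet, and the difference was not tested.

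The core proteins COR1 (YBL045C) and QCR2 (YPR191W), large matrix-facing subunits without redox groups, rose by 0.27 ± 0.05 and 0.50 ± 0.06 (SE). COR1 had values of 10.41, 10.34 and 10.28 with BSA, against 10.12, 10.03 and 10.06 without BSA, and its 1.21-fold change was the smallest of the complex (limma adjusted p = 0.00214). QCR2 rose 1.42-fold. Of the small subunits, QCR10 (YHR001W-A) rose furthest, with values of 11.44, 11.23 and 11.41 with BSA and of 10.29, 10.48 and 10.39 without BSA, a change of 0.97 ± 0.08 (SE). QCR9 (YGR183C, 0.66), QCR7 (YDR529C, 0.66) and QCR6 (YFR033C, 0.64), the acidic subunit near cytochrome c1, had similar changes, and QCR8 (YJL166W) changed by 0.41. Over the 9 genes limma adjusted p values were at most 0.00214.

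All 7 genes listed here for complex IV, cytochrome c oxidase, rose as well, with a median of 0.55. The genes for its subunit 5, COX5A and COX5B, were not in this list and are described further below. Changes of the 7 genes ran from 0.36 for COX4 (YGL187C) to 0.79 for COX6 (YHR051W), and none of these was 2-fold. COX6 had values of 10.70, 10.56 and 10.47 with BSA, against 9.80, 9.79 and 9.78 without BSA, a 1.72-fold rise (limma adjusted p = 3.15e-05). COX4, a zinc-binding subunit on the matrix side, had values of 10.84, 10.76 and 10.65 with BSA, against 10.40, 10.40 and 10.36 without BSA, a 1.28-fold rise. COX12 (YLR038C), which lies on the intermembrane side, rose 1.52-fold and COX13 (YGL191W) 1.31-fold. Of the small membrane subunits, COX7 (YMR256C) rose by 0.55 ± 0.07, COX8 (YLR395C) by 0.49 ± 0.10 and COX9 (YDL067C) by 0.67 ± 0.13 (SE). Of these, COX9 had values of 11.22, 10.75 and 10.72 with BSA and of 10.22, 10.23 and 10.24 without BSA. BSA replicate 1 stood above the other BSA arrays, yet the lowest BSA array still exceeded the highest no BSA array by 0.48.

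BSA replicate 1 was the highest BSA array in all 9 complex III genes and all 7 complex IV genes, and in 27 of the 37 genes. The median deviation of the complex III genes from their no BSA means was 0.77 in BSA replicate 1, 0.57 in replicate 2 and 0.60 in replicate 3. For complex IV the deviations were 0.67, 0.41 and 0.49. Without BSA replicate 1 all 16 genes of these complexes were still higher, so the calls do not rest on that array. Among the no BSA arrays, replicate 1 was highest in 11 of the 14 ATP synthase genes, but in 2 of the 9 complex III genes.

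**Figure D2:**
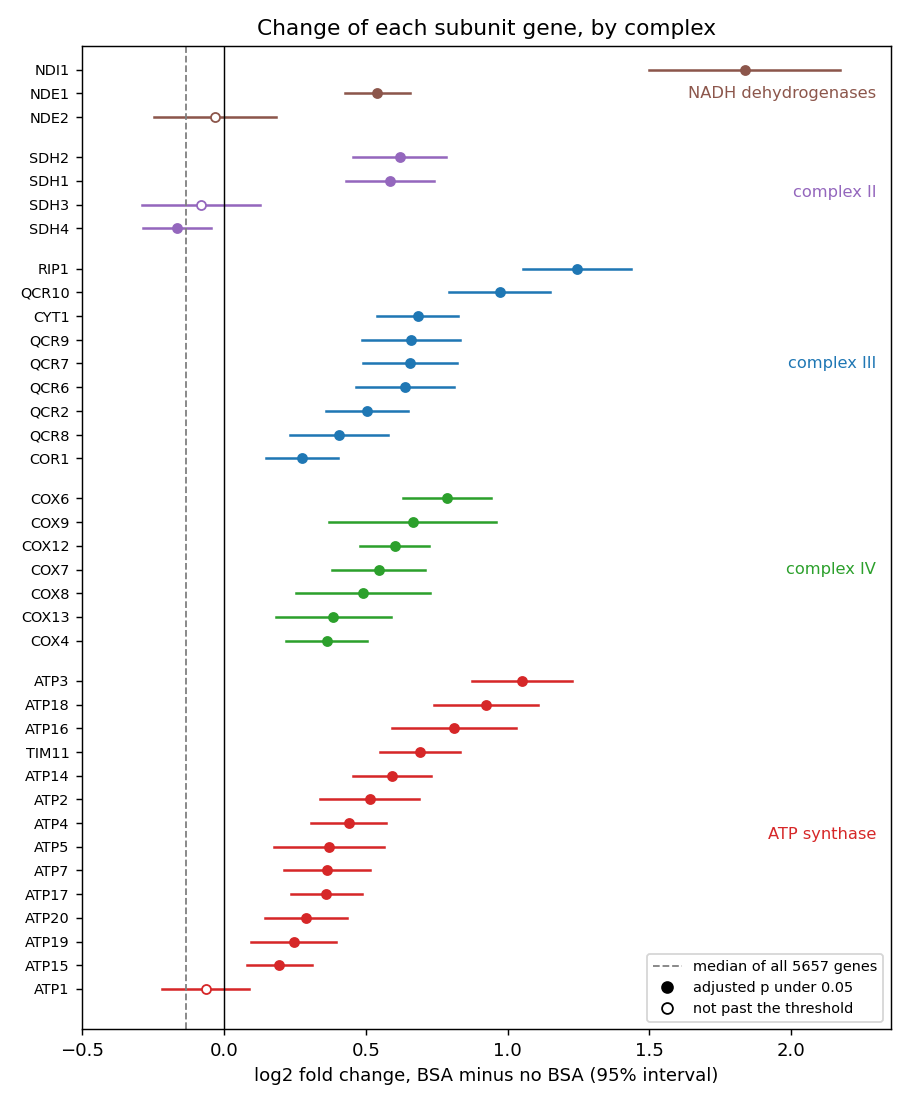
Log2 fold change (BSA minus no BSA, horizontal axis) of each gene with its 95% interval from the limma fit, sorted within each complex. Filled points passed an adjusted p of 0.05, open points did not, the solid line marks no change and the dashed line the median of all genes (-0.13). NDI1 stands furthest to the right, all genes of complexes III and IV lie right of 0, and SDH3, SDH4, NDE2 and ATP1 lie at or left of it.

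Of the 14 genes of the ATP synthase, 13 rose, and the median log2 fold change was 0.40. None of the 14 was lower in limma, either after adjustment (0 genes) or at an unadjusted p under 0.05 (0 genes). The catalytic head is a ring of alpha (ATP1, YBL099W) and beta (ATP2, YJR121W) subunits around the central stalk. ATP1 had values of 11.00, 11.21 and 11.11 with BSA and of 11.22, 11.13 and 11.15 without BSA. The groups overlapped and the change of -0.06 did not pass (limma adjusted p = 0.396), with a 95% interval of -0.22 to 0.09. ATP2, the catalytic subunit, had values of 10.79, 10.81 and 10.70 with BSA, against 10.40, 10.15 and 10.22 without BSA. It rose 1.43-fold (0.51 ± 0.07, SE, limma adjusted p = 0.000461).

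The per-array difference ATP1 minus ATP2 was 0.34 ± 0.11 with BSA and 0.91 ± 0.08 without BSA (SD, n = 3 each). The difference was smaller in every BSA array than in every no BSA array. It changed by -0.58 (exact two-sided permutation p = 0.1, and 0.1 after adjustment over the 2 pairs), the smallest p that 3 arrays against 3 allow. It was -0.52 to -0.62 when each array was left out in turn and -0.58 to -0.65 under the 4 scalings tried.

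The genes of the central stalk spanned the range of the ATP synthase genes that rose. ATP3 (YBR039W), the gamma subunit that turns inside the head, had values of 11.21, 11.21 and 11.18 with BSA, against 10.31, 10.05 and 10.08 without BSA. It rose 2.07-fold (1.05 ± 0.08, SE, limma adjusted p = 1.62e-05), the furthest of the ATP synthase. ATP16 (YDL004W), the delta subunit, had values of 11.19, 11.04 and 10.98 with BSA, against 10.45, 10.16 and 10.17 without BSA, a 1.75-fold rise. ATP15 (YPL271W), the epsilon subunit, had values of 11.08, 11.00 and 10.99 with BSA, against 10.81, 10.85 and 10.82 without BSA. Its 1.15-fold rise (limma adjusted p = 0.00756) was the smallest among the genes that rose, and it was lost under quantile normalization (adjusted p = 0.0527).

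The peripheral stalk, which holds the head still against the turning rotor, had changes of 0.36 to 0.59 on the log2 scale. Its 4 genes all rose: ATP4 (YPL078C, subunit b) by 0.44 ± 0.06, ATP5 (YDR298C, the oligomycin sensitivity-conferring protein) by 0.37 ± 0.08, ATP7 (YKL016C, subunit d) by 0.36 ± 0.06 and ATP14 (YLR295C, subunit h) by 0.59 ± 0.06 (SE). In ATP5 the nearest arrays of both groups stood 0.12 apart, the narrowest gap of the 33 genes that rose, with values of 10.47, 10.50 and 10.37 with BSA and of 10.26, 9.98 and 10.00 without BSA.

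The small membrane subunits also rose, all 5 of them. ATP18 (YML081C-A, subunit i/j) had values of 11.05, 10.78 and 10.84 with BSA, against 9.94, 10.03 and 9.93 without BSA, a 1.90-fold rise (limma adjusted p = 3.17e-05). TIM11 (YDR322C-A, subunit e), needed together with ATP20 (YPR020W, subunit g) for pairing of the enzyme into dimers, had values of 10.50, 10.39 and 10.47 with BSA, against 9.86, 9.72 and 9.71 without BSA. TIM11 rose 1.61-fold and ATP20 1.22-fold, with 95% intervals of 0.55 to 0.83 and 0.14 to 0.43 on the log2 scale that did not meet. ATP17 (YDR377W, subunit f) rose 1.28-fold and ATP19 (YOL077W-A, subunit k) 1.19-fold. The difference between genes of this group was not tested.

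Set side by side, the median log2 fold changes were 0.66 for complex III, 0.55 for complex IV, 0.54 for the NADH dehydrogenases, 0.40 for the ATP synthase and 0.25 for complex II. The ranges of the complexes overlapped, and no test was made between them. Among the 37 genes the range was widest for the NADH dehydrogenases (-0.03 to 1.84) and narrowest for complex IV (0.36 to 0.79). The complex IV list leaves out COX5A and COX5B, which changed by 0.95 and 1.47, beyond that range. Of the 33 genes that rose, 22 changed by 0.3 to 0.7 on the log2 scale. SDs between replicate arrays were 0.0089 to 0.30 with BSA and 0.0113 to 0.166 without BSA. Between 35 and 36 of the 37 genes lay above the third quartile of all genes on every array, and whether bright probe sets understate changes was not tested.

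**Figure D3:**
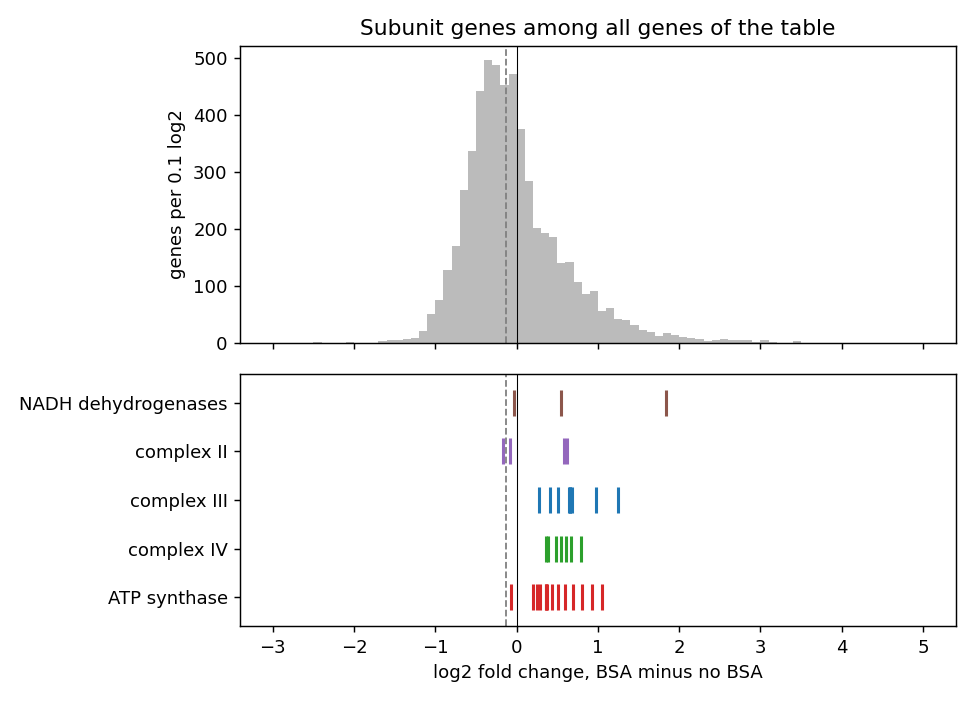
Upper panel, number of genes per 0.1 of log2 fold change (BSA minus no BSA) over all 5657 genes; lower panel, a tick for each of the 37 genes by complex on the same axis. The dashed line marks the median of all genes (-0.13), which lies left of all ticks except that of SDH4.

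The genes next to the 37 on the chromosomes gave a further comparison. Genes on either side were taken without regard to strand, so those that share a promoter region with a member were not told apart from the rest. No member lay beside another member. Of the 74 adjacent genes in the table, 30 (40.5%) rose and 29 fell, against 28.3% and 47.1% of all genes, with a median log2 fold change of 0.03. The share that rose was thus higher than among all genes and well below the 89.2% of the respiratory genes; neither difference was tested.

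Other genes of the same pathway were described from lists by function. Both genes of cytochrome c, the carrier between complexes III and IV, rose. CYC1, the main cytochrome c, had values of 11.06, 10.94 and 10.94 with BSA, against 10.49, 10.53 and 10.45 without BSA, a 1.41-fold rise that falls within the range of complex III and complex IV. CYC7, the cytochrome c isoform of low oxygen, rose 24.3-fold. Its values were 11.54, 10.97 and 11.22 with BSA and 6.45, 6.75 and 6.74 without BSA. The no BSA values of CYC7 lay below the first quartile of all probe sets on those arrays (6.89 to 6.91), so the fold change was measured from dim values. The genes for subunit 5 of complex IV, whose isoforms are exchanged with oxygen supply in yeast, both rose, COX5A by 0.95 ± 0.06 and COX5B by 1.47 ± 0.25 (SE). COX5B varied widely between arrays, with values of 8.13, 7.06 and 7.31 with BSA and of 5.82, 6.15 and 6.12 without BSA. Its no BSA values also lay below that quartile, so its fold change was measured from dim values. COX5B was removed by the filter on the dimmest 25% of genes.

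Genes of ubiquinone synthesis gave calls in both directions. Of 10 genes 5 (50%) fell and 4 (40%) rose, against 47.1% and 28.3% of all genes. The median of the 10 genes was -0.17, close to the -0.13 of all genes. COQ1, which makes the side chain of ubiquinone, rose by 0.76 ± 0.08 and the methyltransferase gene COQ5 by 0.70 ± 0.07, whereas COQ8, an atypical kinase-like protein of the pathway, changed by -0.52 ± 0.06 (SE). The other genes that rose, COQ4 and CAT5, changed by 0.18 and 0.17, and both calls were lost without BSA replicate 3 or no BSA replicate 2 or 3, that of COQ4 also without BSA replicate 2 (limma adjusted p = 0.063 to 0.134 for COQ4 and 0.0673 to 0.0917 for CAT5). With no BSA replicates 2 and 3 as 1 sample neither call held (limma adjusted p = 0.123 for COQ4 and 0.0762 for CAT5), which left 2 higher, and by the plain per-gene test COQ4 did not pass (adjusted p = 0.078). The count of genes that fell was 3 to 5 under the 4 scalings.

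Further donors of electrons to the chain gave mixed results. CYB2 and DLD1, which oxidise lactate, rose by 0.83 ± 0.05 and 0.94 ± 0.11. GUT2, which oxidises glycerol 3-phosphate at the outer face of the inner membrane, was lower by a small amount (-0.22 ± 0.06, SE), a call lost when arrays were centred on the median deviation (limma adjusted p = 0.185). Among the genes of carriers and porin, the phosphate carrier gene MIR1 rose by 0.85, the main ADP/ATP carrier gene PET9 by 0.36 and the porin gene POR1 by 0.44. The minor carriers AAC1 (0.77) and AAC3 (-0.17) were called higher and lower. However, AAC1 was at 8.69 in no BSA replicate 1 against 7.70 and 7.68 in replicates 2 and 3. AAC3 was dim, at 5.41 to 5.66, below the first quartile of all probe sets on every array (6.76 to 6.91). Relative to the median of all genes AAC3 changed by -0.04. Without BSA replicate 1, 2 or 3 or no BSA replicate 2 or 3 the AAC1 call was lost (adjusted p = 0.0527 to 0.0756), and the AAC3 call was lost without BSA replicate 3 or no BSA replicate 2 or 3 (adjusted p = 0.0692 to 0.0854). With no BSA replicates 2 and 3 as 1 sample both calls were lost (limma adjusted p = 0.0756 for AAC1 and 0.0814 for AAC3), and by the plain per-gene test AAC1 did not pass (adjusted p = 0.11). Of the 4 scalings, only quantile normalization kept the AAC3 call, and only quantile normalization lost the AAC1 call (limma adjusted p = 0.0502).

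The 3 inhibitor genes of the ATP synthase rose in limma, and 1 of the 3 passed by a plain per-gene test. INH1 and STF1, which block ATP hydrolysis when the proton gradient falls, rose by 0.50 ± 0.09 and 0.50 ± 0.15, and STF2, a factor linked to their action, by 0.37 ± 0.12 (SE). Leaving out no BSA replicate 2 or 3 ended the STF2 call (limma adjusted p = 0.063 and 0.0839), as did averaging these as 1 sample (limma adjusted p = 0.072). By the plain per-gene test the adjusted p was 0.077 for STF1 and 0.105 for STF2.

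Among the HAP genes, HAP4, the limiting activator subunit that is itself repressed by glucose, rose 3.57-fold, with values of 11.49, 11.34 and 11.42 with BSA and of 9.30, 9.70 and 9.74 without BSA. HAP2 and HAP5, subunits that bind DNA, rose by 0.98 ± 0.09 and 0.60 ± 0.06. HAP3, the third DNA-binding subunit, changed by 0.19 ± 0.09 and did not pass (limma adjusted p = 0.0918), but passed as higher under 3 of the 4 scalings and without no BSA replicate 3 (adjusted p = 0.0426). HAP1, the heme-dependent activator, changed by -0.22 ± 0.07, and that call was lost under 3 of the 4 scalings and without BSA replicate 2 or 3 or no BSA replicate 1 or 2 (adjusted p = 0.0615 to 0.083), and by the plain per-gene test (adjusted p = 0.0633).

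The TCA cycle, which feeds complex II and makes NADH for NDI1, gave calls in both directions. Of its 11 genes 7 (63.6%) rose, 2 (18.2%) fell and 2 did not pass. Of all genes 28.3% rose and 47.1% fell. The median of the 11 genes was 0.50. KGD2 (1.47 ± 0.05), a subunit of the 2-oxoglutarate dehydrogenase, and the malate dehydrogenase gene MDH1 (1.22 ± 0.05) had the smallest p, followed by CIT1, the citrate synthase gene, at 0.50 ± 0.05 (SE). The 2 that fell, LSC1 (-0.44) and LSC2 (-0.58), encode both subunits of succinyl-CoA ligase, which makes the succinate that complex II oxidises. FUM1, the fumarase gene, named after its values were seen, did not pass with all arrays (0.19, limma adjusted p = 0.236), and its groups overlapped. FUM1 passed as higher without no BSA replicate 1 (0.36, limma adjusted p = 0.000707).

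The vacuolar proton ATPase is built like the ATP synthase but runs in reverse, spending ATP to pump protons into the vacuole. Of its 15 genes 11 (73.3%) fell and 2 (13.3%) rose, against 47.1% and 28.3% of all genes. The median log2 fold change of the 15 genes was -0.52, which is -0.39 once the median of all genes is subtracted. VMA5, VMA16 and VMA13 had the smallest p among its genes and changed by -0.68, -0.69 and -0.59. VMA6, named after its values were seen, did not pass (-0.14) but was called lower without BSA replicate 1 (limma adjusted p = 0.0228). VMA10 (0.54 ± 0.08, SE), a stator subunit, and STV1 (0.19 ± 0.06), the Golgi isoform of the membrane stator subunit, rose. The STV1 call was lost without BSA replicate 2 or no BSA replicate 2 or 3 (limma adjusted p = 0.0614 to 0.0844) and with no BSA replicates 2 and 3 as 1 sample (limma adjusted p = 0.0728). The count of genes that fell was 10 to 12 under the 4 scalings, against 0 of the 14 ATP synthase genes under each of them; the difference between both enzymes was not tested. The 7 subunits encoded in mitochondrial DNA were not analysed here.

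**Figure D4:**
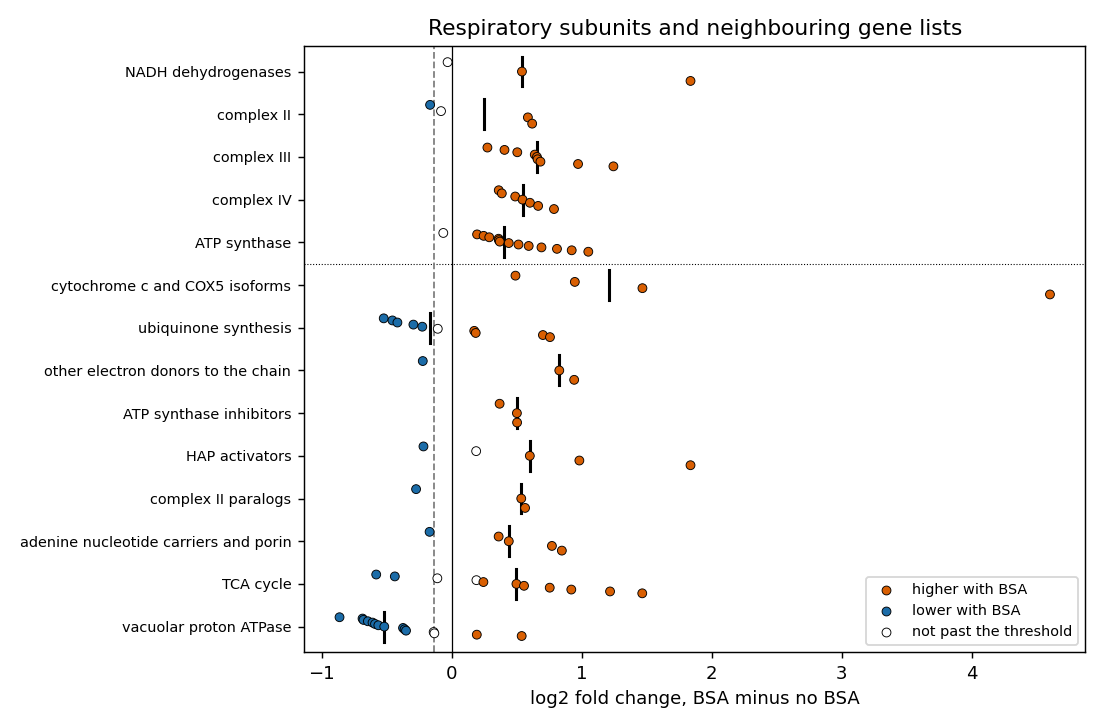
Log2 fold change (BSA minus no BSA, horizontal axis) of each gene in the respiratory complexes (above the dotted line) and in lists of related function (below it); colour gives the call at an adjusted p of 0.05, the thick bar the median of a list and the dashed line the median of all genes (-0.13). The bars of the ATP synthase (0.40) and of the vacuolar proton ATPase (-0.52) lie on opposite sides of 0, and the bar of ubiquinone synthesis (-0.17) lies near the dashed line.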

How the data were processed

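The deposited table holds log2 expression values of 5705 probe sets, for which the submitters' processing notes name PLIER and R 2.10.1 without saying what each did. How the authors corrected background, normalized arrays or filtered is not given in the sources used here, and the log2 base was read from the span of the deposited values (4.82 to 12.86). Values were used as deposited. Where several probe sets measured a gene, the one with the highest mean was kept, which left 5657 genes. Arrays were grouped by their labels. BSA and no BSA were compared over all genes in R 4.3.3 with limma 3.58.1, without a block, and p-values were adjusted over all genes (Benjamini-Hochberg, threshold 0.05). The fit was tested on simulated data. Arrays have no sequencing depth, and 3 arrays a group limit the precision.

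The members, lists and tests were chosen with earlier results of these data known. All 37 members are named. Lists of up to 5 genes are named whole, and longer ones by the 3 smallest p and the genes called against the majority. FUM1 and VMA6 are named outside this rule, after their values were seen. The 21 alternatives comprise 4 scalings (quantile, centring on the median, centring on the median deviation, cyclic loess), leaving out each array, the replicate number as a block, no BSA replicates 2 and 3 as 1 sample, the mean of probe sets, other variance priors, array weights, a plain per-gene test, filters on dim genes and stricter thresholds. The promoter and protein descriptions planned were not made, as no sequence was used here.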

Additional observations from a re-analysis of the deposited data

How the results depend on the processing

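The count of 33 genes higher with BSA was 32 to 33 under the 4 scalings, 33 without any array, and 3 where a change of at least 2-fold was required. The last threshold also left 1 of 2 NADH dehydrogenase genes, 0 of 2 complex II genes, 1 of 9 complex III genes, 0 of 7 complex IV genes, 1 of 13 ATP synthase genes and 0 genes called lower. The 1 gene called lower, SDH4, became 0 with arrays centred on the median deviation, after cyclic loess, with no BSA replicates 2 and 3 as 1 sample and at an adjusted p under 0.01, and the count was 0 to 1 when each array was left out. The median log2 fold change of 0.54 was 0.67 with arrays centred on the median deviation, since that centring moves all genes up by 0.13. Quantile normalization lowered the median to 0.47, or 0.56 relative to the median of all genes. The median was 0.50 to 0.56 when each array was left out. NDE1 minus NDE2 was 0.47 to 0.66 and ATP1 minus ATP2 was -0.62 to -0.52 without each array. Genes that did not pass changed sign as follows, none past the threshold: NDE2 to 0.0327 with array weights, 0.0104 with arrays centred on their medians, 0.102 with arrays centred on the median deviation and 0.0773 without BSA replicate 1 (-0.103 to 0.0773 over the arrays left out); SDH3 to 0.0284 with array weights and 0.0511 with arrays centred on the median deviation; ATP1 to 0.0684 with that centring and 0.0138 after cyclic loess. With 2-fold changes left aside, 32 of 34 called genes kept their call under the other 20 alternatives, SDH4 and ATP15 being the exceptions. With the replicate block 33 genes were higher and 1 lower, and 4266 of all genes were called, against 4268 without it. Deviations of same-numbered arrays from their group means correlated at 0.10, 0.02 and 0.04 over genes, and not every array correlated best with its own number, so the numbers were not taken to pair the arrays. The cause of shifts other than those from centring, thresholds or fewer arrays was not tested, and 3 arrays a group limit the precision.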
